A study of Macaca mulatta with 25 samples.

Results

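Gene expression in the cervix after 7 days of progesterone was compared with that under estradiol alone, over 10 of the 25 arrays of the series, 5 in each group, and over the 16020 of 40489 probe sets that the array's annotation lists for a single gene symbol. These probe sets stand for 15534 genes. The animals were ovariectomized adult rhesus macaques that all carried an estradiol implant, so both groups lack ovarian hormones of their own and share estradiol. Animals of the E2 group were given only estradiol, for 14 days, which the labels call the follicular phase. The E+7P group had also carried a progesterone implant for 7 days, which they call the mid to late luteal phase. In the groups E+1P, E+3P and E+14P progesterone lasted 1, 3 and 14 days, with 5 animals each and 1 array per animal. The days of estradiol in the progesterone groups are not given in the labels, so a longer exposure to estradiol and the exposure to progesterone cannot be told apart. The series' own design text gives other group sizes for most groups, and the groups here follow the array labels.

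Progesterone acts through its nuclear receptor PGR, a transcription factor whose gene is itself switched on by estrogen through ESR1 and turned down by progestins. In the cervix the glands secrete abundant, watery mucus under estrogen, and progesterone turns this into scant, thick mucus. The tissue is a mixture of squamous and columnar epithelium, fibrous stroma, smooth muscle, vessels and immune cells, and the arrays read all of them together. In such bulk samples, fewer cells of a type and less RNA per cell cannot be told apart.

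The arrays had medians between 5.502 and 5.604 on the log2 scale of the deposited signals, and the number of animals limits the precision of each comparison. As a check of the labelled tissue, markers of epithelium and muscle, which other organs share, were read on all 10 arrays: the columnar epithelial markers WFDC2 and EPCAM read at least 11.73 and 8.41, and ACTA2, a smooth muscle actin, at least 8.88. Among the E2 arrays, replicate 3 stood apart in several readings. It had the lowest median correlation with its own group (0.954, against 0.97 to 0.972 for the other E2 arrays). Its mean over 31 smooth muscle markers was 8.11, where the other E2 arrays read 6.55 to 6.87, and its mean over 28 ciliated cell markers was 7.60, where they read 6.39 to 7.11. Its mean over 35 genes of mucins and mucus was the lowest of the group, 6.65 against 7.34 to 7.53, and KRT5, a basal squamous keratin, read 5.33 against 8.49 to 9.24, so that its log2 fold change of 0.26 (adjusted p = 0.914) was -0.46 without this array. Of the 556 genes called lower in E+7P, E2 replicate 3 lay within the E+7P range for 61, and the other E2 arrays did so for 9 to 30. Values without E2 replicate 3 are given beside results in which it lies apart. In the mean over 25 squamous markers, E2 replicates 2 and 4 read 6.06 and 6.55, and the other E2 arrays 4.68 to 5.09. Among the E+7P arrays, smooth muscle markers were high in replicate 2 (8.67) and replicate 1 (7.63) and ranged from 6.60 to 7.02 in the others.

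Over all probe sets, limma called 1695 in E+7P against E2 at an adjusted p under 0.05, which is 4.19% of those tested. Of these, 739 were higher (1.83%) and 956 lower (2.36%) after progesterone. Counted by gene, 909 of 15534 were called, 5.85%, of which 353 rose, 2.27%, and 556 fell, 3.58%, while 19.9% of all genes had an unadjusted p under 0.05. The rise was at least 2-fold for 67 genes, 0.431%, and the fall for 97, 0.624%. The median log2 fold change over all genes was 0.02. In 678 genes, 4.36%, the lowest E+7P array was above the highest E2 array, and in 727, 4.68%, the highest E+7P array was below the lowest E2 array. Without E2 replicate 3 the number of called probe sets was 1696, without E+7P replicate 5 it was 1008, and without E2 replicate 4 it was 1064. When each array was centred on its median, 532 were called higher and 1172 lower, which puts 31.2% of the calls in the higher direction where the deposited scale puts 43.6%. Changes of both directions were mostly modest. A test against a minimum change of 1.5-fold left 4 probe sets, those of CCDC141 (7.25 against 4.75 in E2), TNFSF10 and DIO2 and 1 without a gene symbol, which fell by 2.88 on the log2 scale. That test ended the calls of the other genes named here. The gene lists below were chosen with earlier results of these data known. Their shares beside those of all genes are therefore descriptions and not tests.

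The genes of steroid hormone action moved as follows. PGR, the progesterone receptor gene, read 10.88, 10.81, 10.45, 10.94 and 10.69 on the E2 arrays and 10.04, 9.86, 9.56, 9.65 and 8.79 on the E+7P arrays. Every E+7P array lay below every E2 array. PGR fell by 1.17 on the log2 scale (SE 0.20, adjusted p = 0.00157), a signal 2.25 times lower. ESR1, the estrogen receptor gene, read 8.43 to 9.18 in E2 and 8.49 to 8.99 in E+7P, with overlapping groups and a log2 fold change of -0.21 (SE 0.20, adjusted p = 0.663). FKBP5, which works with the chaperones of steroid receptors and is induced by progestins and glucocorticoids, read 5.95, 5.93, 5.23, 5.32 and 5.94 in E2 and 7.11, 7.34, 7.19, 7.26 and 6.96 in E+7P. The groups were more than 1 log2 unit apart. FKBP5 rose by 1.5 (SE 0.22, adjusted p = 0.000356). Its relative FKBP4, which helps keep steroid receptors able to bind hormone, fell by 0.82 (SE 0.16, adjusted p = 0.00434), and so did NRIP1, a corepressor of nuclear receptors, by 0.65 (adjusted p = 0.0204). Of the 13 steroid receptors and cofactors measured, 1 rose (7.69%, against 2.27% of all genes) and 3 fell (23.1%, against 3.58%). Of 22 genes known to respond to estrogen, 4 fell (PGR, NRIP1, OVGP1 and CCND1), 18.2% where 3.58% of all genes fell. PGR and NRIP1 are also among the falls of the steroid receptor list. None of the 22 rose in limma, where 2.27% of all genes rose. At an unadjusted p under 0.05, 2 were above and 8 below 0, and the median of the list was -0.54. The log2 fold changes of these members ran from -4.19 to 3.11. With the 2 groups fitted alone, 2 members were called higher and 7 lower, and with array weights 2 higher and 6 lower. NCOA3, a coactivator, was 0.32 higher but was not called (adjusted p = 0.0725). The NRIP1 call was lost without E+7P replicate 3 or E2 replicates 1 or 4 (adjusted p up to 0.0536).

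Called members of a list of progestin and glucocorticoid targets all rose. Of 29 measured, 7 were called higher in limma and none lower (15 above 0 and 0 below at an unadjusted p under 0.05), 24.1% where 2.27% of all genes were called higher, and the median of the list was 0.45. GPX3, a secreted glutathione peroxidase that removes peroxides, read 5.83, 6.61, 5.99, 6.21 and 5.11 in E2 and 8.42, 7.69, 8.67, 9.12 and 7.11 in E+7P. No E2 array reached the E+7P range, and GPX3 rose by 2.25 (SE 0.42, adjusted p = 0.00295), a 4.76-fold higher signal. TSC22D3, which encodes the glucocorticoid-induced leucine zipper, rose by 0.94 (SE 0.15, adjusted p = 0.0011). FOXO1, a transcription factor that works with PGR in the decidualizing endometrium, rose by 0.92 (adjusted p = 0.00811). IL15, a cytokine that sustains natural killer cells, rose by 1.23 (adjusted p = 0.00937), ERRFI1, an inhibitor of the EGF receptor, by 1.16 (adjusted p = 0.0204), and ZBTB16, a zinc finger repressor, by 0.72 (adjusted p = 0.0225). In each of these 5 genes all E+7P arrays lay above all E2 arrays. SGK1, a kinase that regulates sodium transport, also separated the groups completely (7.73 to 9.80 in E2, 9.96 to 10.37 in E+7P) but was not called (adjusted p = 0.269), with E2 replicate 3 at 7.73 and the next E2 array at 9.32. Its log2 fold change was 0.95, and 0.58 without that array (adjusted p = 0.537). The ERRFI1 call was lost without E+7P replicates 3 or 4 and the ZBTB16 call without E+7P replicates 1 or 2 or E2 replicates 1 or 2 (adjusted p up to 0.0565 and 0.0633).

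**Figure D1:**
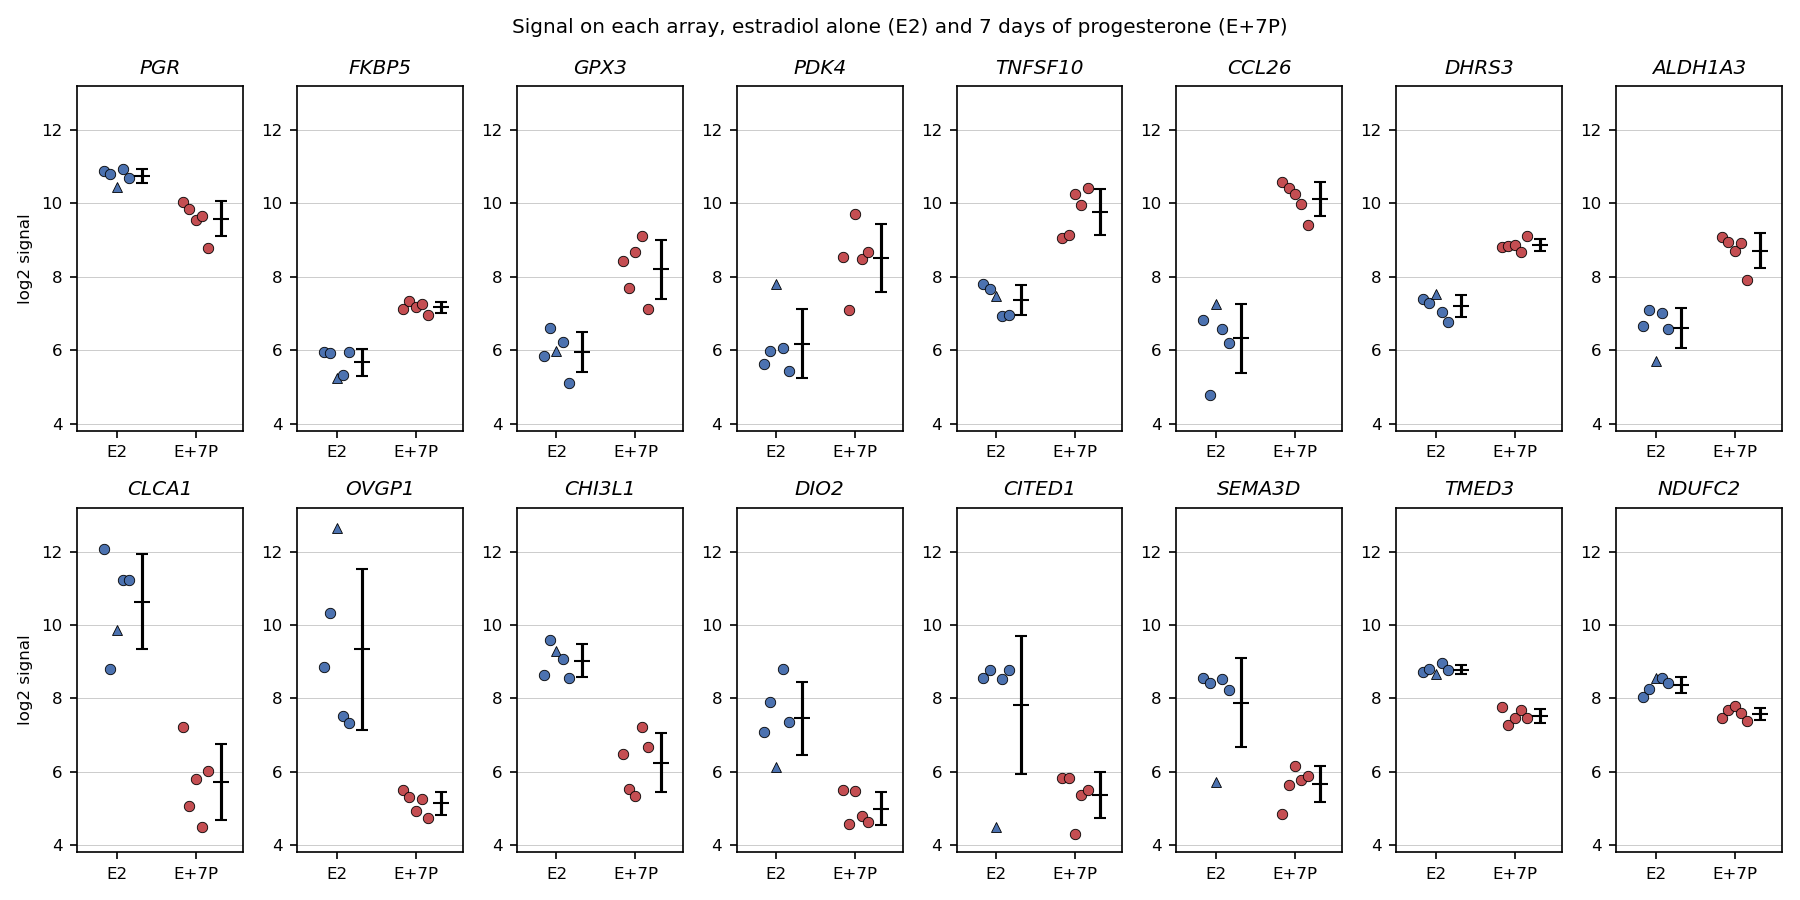
Log2 signal (vertical axis) of 16 genes on each array under estradiol alone (E2, blue) and after 7 days of progesterone (E+7P, red), 5 animals each, with E2 replicate 3 drawn as a triangle and the mean ± SD in black. FKBP5, TNFSF10 and DHRS3 separate the groups upward and PGR, CHI3L1 and TMED3 downward, while in CITED1 and SEMA3D the E2 triangle lies among the E+7P arrays.

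Genes of mucus and its secretion held the largest falls. CLCA1, a protein that goblet cells secrete into mucus, read 12.07, 8.79, 9.85, 11.23 and 11.22 in E2 and 7.21, 5.06, 5.81, 4.50 and 6.02 in E+7P. The lowest E2 array was above the highest E+7P array. CLCA1 fell by 4.91 on the log2 scale (SE 0.78, adjusted p = 0.000788), a signal 30.1 times lower. OVGP1, the oviduct-specific glycoprotein that estrogen induces in the oviduct, read 8.86, 10.33, 12.63, 7.51 and 7.34 in E2 and 5.51, 5.31, 4.92, 5.25 and 4.73 in E+7P. E2 replicate 3, the array with the highest ciliated cell mean, was the highest of the group, and all E2 arrays still lay above all E+7P arrays. OVGP1 fell by 4.19 (SE 0.74, adjusted p = 0.00194), and its log2 fold change without that array was -3.37.

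Other genes of the mucus list moved less. SPDEF, a transcription factor needed for goblet cells, read 6.23 to 6.72 in E2 and 5.06 to 5.88 in E+7P and fell by 1.04 (SE 0.19, adjusted p = 0.00304). GALNT4 and GALNT5, enzymes that start the sugar chains of mucins, fell by 1.33 (adjusted p = 0.0119) and 1.56 (adjusted p = 0.016). For both, E2 replicate 3 lay among the E+7P arrays (6.99 and 6.73), and without it the log2 fold changes were -1.67 and -1.98. The GALNT5 call was lost without E2 replicate 2 (adjusted p = 0.0526). In all, 5 of the 35 mucus genes measured fell, 14.3% where 3.58% of all genes fell, none rose in limma (12 below 0 and 0 above at an unadjusted p under 0.05), and the median of the list was -0.40. Without E2 replicate 3, the array with the lowest mucus mean of its group, 9 members were called lower and the median was -0.49. The mucin genes themselves were not called. MUC5B, a main gel-forming mucin of the cervix, had a log2 fold change of -1.04 (SE 0.78, adjusted p = 0.547), MUC5AC one of -0.34 (adjusted p = 0.356), and MUC1, a mucin of the cell surface, one of -0.04 (adjusted p = 0.983). AGR2, an endoplasmic reticulum enzyme needed for mucin assembly, had all 5 E+7P arrays (9.56 to 9.80) below all E2 arrays (10.29 to 11.42) with a log2 fold change of -1.36, but was not called (SE 0.58, adjusted p = 0.221).

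Of 50 genes of epithelial and mucosal defence, 1 rose (2%) and 3 fell (6%), where 2.27% of all genes rose and 3.58% fell. CHI3L1, a chitinase-like glycoprotein, read 8.63, 9.60, 9.29, 9.08 and 8.54 in E2 and 6.48, 5.52, 5.33, 7.23 and 6.67 in E+7P. It fell by 2.78 (SE 0.44, adjusted p = 0.000752), and the groups did not overlap. LYZ, lysozyme, which cuts bacterial cell walls, read 11.39, 11.63, 11.29, 11.77 and 11.65 in E2 and 9.32, 9.15, 9.74, 10.05 and 9.60 in E+7P. It fell by 1.98 (SE 0.38, adjusted p = 0.00364), and was the only one of 45 myeloid cell markers called, 2.22% where 3.58% of all genes fell. Each E2 array was more than 1 log2 unit above the E+7P arrays. DMBT1, a mucosal glycoprotein that binds bacteria, fell by 2.09 (SE 0.44, adjusted p = 0.00654), although E2 replicate 3 (5.86) lay within the E+7P range of 5.09 to 6.56. Without this array the log2 fold change was -2.58. MASP1, a protease of the lectin pathway of complement, rose by 1.77 (SE 0.30, adjusted p = 0.00137) from 4.91 to 5.75 in E2 to 6.53 to 7.66 in E+7P.

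Further secreted proteins among the largest falls, with their log2 fold changes, were SCGB3A1, a secretoglobin (-2.10, SE 0.56, adjusted p = 0.0323), PF4V1, a platelet factor 4 variant chemokine (-2.20, SE 0.46, adjusted p = 0.00681), and CST5, an inhibitor of cysteine proteases (-2.15, SE 0.49, adjusted p = 0.0122). In human PF4V1 is nearly identical to PF4, so its probe set may read both. For all 3, E2 replicate 3 was the lowest E2 array, at 6.46, 5.70 and 3.53, at or near the E+7P arrays. Without it the log2 fold changes were -2.69, -2.89 and -2.76. The calls of SCGB3A1, PF4V1 and CST5 were lost when E2 and E+7P were fitted without the other groups (adjusted p = 0.0979, 0.079 and 0.093), and that of SCGB3A1 also without any array but E2 replicate 3 or E+7P replicate 5 (adjusted p up to 0.102).

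Among the lists, the broadest change was in genes of protein folding and secretion at the endoplasmic reticulum (ER), the compartment where secreted and membrane proteins are made. Of 66 measured, 44 fell and none rose in limma (53 below 0 and 0 above at an unadjusted p under 0.05), 66.7% where 3.58% of all genes fell. The list was chosen with earlier results of these data known, so this share describes it and tests nothing. The median of the list was -0.57, and for 43 of the 66 all E+7P arrays lay below all E2 arrays. The mean of the list was 8.63, 8.72, 8.69, 8.80 and 8.78 on the E2 arrays and 8.23, 8.15, 8.18, 8.24 and 8.03 on the E+7P arrays. The groups were narrow and well apart, and E2 replicate 3 lay among the other E2 arrays. TMED3, a cargo receptor of transport vesicles, read 8.71, 8.80, 8.65, 8.96 and 8.77 in E2 and 7.75, 7.26, 7.47, 7.67 and 7.47 in E+7P, a fall of 1.25 (SE 0.14, adjusted p = 4.94e-05). SSR4, a subunit of the translocon-associated complex at the entry to the ER, fell by 1.00 (SE 0.12, adjusted p = 4.94e-05) from 10.29 to 10.44 in E2 to 9.01 to 9.55 in E+7P. Neither gene had overlapping groups.

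Within the ER, PDIA6, which forms disulfide bonds, fell by 1.02 (adjusted p = 9.48e-05). DNAJC3, a co-chaperone of the stress response, fell by 0.87 (adjusted p = 0.000158). RPN2, a subunit of the complex that adds N-linked sugars, fell by 0.76 (adjusted p = 0.000258). SPCS3, a subunit of the signal peptidase, fell by 0.83 (adjusted p = 0.000372). On the way to the Golgi, the cargo receptor LMAN1 fell by 0.77 (adjusted p = 0.000141) and SAR1B, the small GTPase that starts the vesicle coat, by 0.74 (adjusted p = 0.000293). In all 6 genes the groups were fully separate. Other members were not called. SEC31A, a coat subunit, had a log2 fold change of -0.03 (adjusted p = 0.895), and SSR2, another subunit of the translocon-associated complex, one of -0.25 (adjusted p = 0.35). XBP1, a transcription factor of the ER stress response, had one of -0.48 (adjusted p = 0.521), with E2 replicate 3 at 8.86 and the other E2 arrays at 10.16 to 10.59, and one of -0.79 without that array (adjusted p = 0.188). Leaving out single arrays gave 34 to 43 members called lower, and with the squamous, columnar and smooth muscle means as covariates the numbers were 47 lower and 1 higher.

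**Figure D2:**
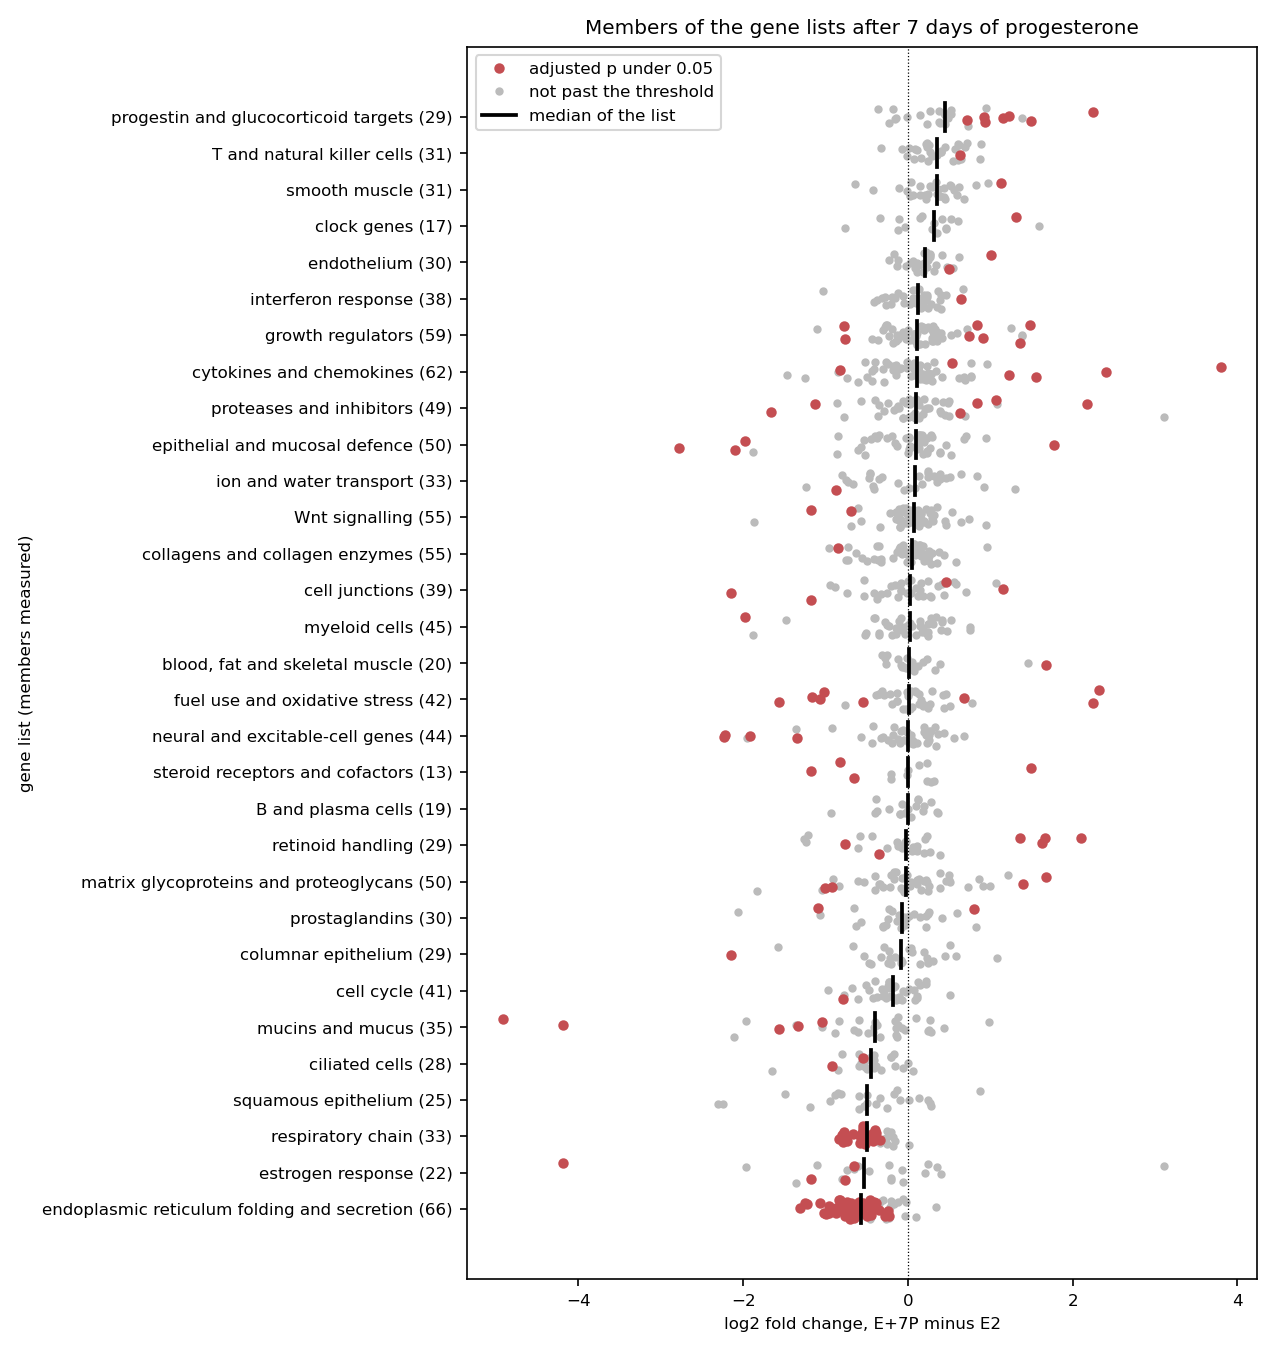
Log2 fold change of each measured member, E+7P minus E2 (horizontal axis), for the 31 gene lists (vertical axis, with the number of members measured), ordered by their median (black bar), with members at an adjusted p under 0.05 in red. The lists of the endoplasmic reticulum and of the respiratory chain are the ones whose red points fill the list, all below 0.

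Genes of the respiratory chain, which makes ATP in mitochondria, fell in a similar share. Of 33 measured, 21 fell and none rose in limma (28 below 0 and 0 above at an unadjusted p under 0.05), 63.6% where 3.58% of all genes fell, with a median of -0.49, and in 24 all E+7P arrays lay below all E2 arrays. The mean of the list was 9.09, 9.18, 9.33, 9.25 and 9.22 in E2 and 8.75, 8.71, 8.84, 8.82 and 8.63 in E+7P. No array of one group reached the range of the other. Like the ER list, this list was chosen with earlier results of these data known. NDUFC2, a subunit of complex I, read 8.03, 8.26, 8.54, 8.54 and 8.41 in E2 and 7.47, 7.68, 7.78, 7.61 and 7.37 in E+7P and fell by 0.77 (SE 0.10, adjusted p = 0.000157). From complex III, UQCRQ fell by 0.58 (adjusted p = 0.000905). The complex IV subunits COX4I1 and COX5A fell by 0.54 (adjusted p = 0.00145) and 0.79 (adjusted p = 0.00154). The genes for the membrane ring of ATP synthase, ATP5MC3 and ATP5MC1, fell by 0.76 (adjusted p = 0.000251) and 0.84 (adjusted p = 0.000718). These falls were each under 2-fold, and the groups did not overlap in any of the 6. Other subunits were close to level: COX6C had a log2 fold change of 0.01 (adjusted p = 0.976), COX5B one of -0.16 (adjusted p = 0.366) and the catalytic ATP synthase subunit ATP5F1A one of -0.26 (adjusted p = 0.103). Leaving out single arrays gave 18 to 21 members called lower.

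Of 42 genes of fuel use and oxidative stress, 3 rose (7.14%, against 2.27% of all genes) and 5 fell (11.9%, against 3.58%). Without E+7P replicate 5 or any of E2 replicates 2, 4 and 5, 3 were called lower. PDK4, a kinase that blocks the entry of pyruvate into the mitochondrial cycle, read 5.62, 5.97, 7.81, 6.06 and 5.44 in E2 and 8.55, 7.10, 9.72, 8.48 and 8.68 in E+7P. E2 replicate 3 overlapped the E+7P arrays. PDK4 rose by 2.33 (SE 0.53, adjusted p = 0.0119), and by 2.73 without that array. HK2, a hexokinase that starts glycolysis, fell by 1.56 (SE 0.24, adjusted p = 0.000585) from 6.40 to 7.44 in E2 to 5.17 to 5.56 in E+7P. UCP2, a carrier of the inner mitochondrial membrane, fell by 1.17 (SE 0.20, adjusted p = 0.00142). The peroxidases PRDX4, which works in the ER, GPX8 and PRDX1 fell by 1.02 (adjusted p = 0.00327), 1.06 (adjusted p = 0.0273) and 0.54 (adjusted p = 0.0325), and TXNIP, an inhibitor of thioredoxin, rose by 0.68 (adjusted p = 0.0347). The calls of the last 3 were fragile. GPX8 lost it without E+7P replicates 3 or 5 or E2 replicates 2, 4 or 5, PRDX1 without any array but E+7P replicates 3 or 4 or E2 replicate 3, and TXNIP without any array but E+7P replicates 1 or 2 or E2 replicate 2 (adjusted p up to 0.0956, 0.0872 and 0.114).

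Of 29 genes of retinoid handling, 4 rose (13.8%, against 2.27% of all genes) and 2 fell (6.9%, against 3.58%), and leaving out single arrays left 0 or 1 of the falls. Retinoic acid is made from vitamin A through retinaldehyde and acts through nuclear receptors. ALDH1A3, which turns retinaldehyde into retinoic acid, read 6.66, 7.09, 5.71, 7.00 and 6.58 in E2 and 9.09, 8.96, 8.71, 8.92 and 7.90 in E+7P. It rose by 2.11 (SE 0.33, adjusted p = 0.000718), and the groups did not overlap. DHRS3, which turns retinaldehyde back into retinol, read 7.39, 7.28, 7.52, 7.05 and 6.78 in E2 and 8.82, 8.84, 8.88, 8.68 and 9.12 in E+7P. The lowest E+7P array was more than 1 log2 unit above the highest E2 array, and DHRS3 rose by 1.66 (SE 0.21, adjusted p = 0.000103). RARB, a retinoic acid receptor that retinoic acid induces, rose by 1.36 (SE 0.23, adjusted p = 0.00138), and the oxidase AOX1 by 1.63 (adjusted p = 0.016). The receptor RARA fell by 0.35 (adjusted p = 0.0443) and STRA6, the cellular uptake receptor for retinol, by 0.77 (adjusted p = 0.0473). The STRA6 call was lost without any single array (adjusted p up to 0.123), that of RARA without any array but E2 replicate 3 (adjusted p up to 0.115), and that of AOX1 without E2 replicate 4 (adjusted p = 0.0544).

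Of 62 cytokine and chemokine genes, with receptors, 5 rose (8.06%, against 2.27% of all genes) and 1 fell (1.61%, against 3.58%). Without E+7P replicate 1, 3 or 5 or without E2 replicate 4, 3 were called higher. CCL26, or eotaxin-3, a chemokine that attracts eosinophils, read 6.82, 4.79, 7.25, 6.58 and 6.19 in E2 and 10.59, 10.41, 10.25, 9.99 and 9.40 in E+7P. The groups lay more than 2 log2 units apart. CCL26 rose by 3.8 (SE 1.02, adjusted p = 0.0337), a 13.9-fold higher signal, on a standard error pooled with E+3P, where its SD was 3.10. The call was lost without any array but E2 replicates 1 or 3 (adjusted p up to 0.0939). TNFSF10, the death ligand TRAIL, read 7.80, 7.67, 7.48, 6.94 and 6.95 in E2 and 9.07, 9.13, 10.26, 9.97 and 10.42 in E+7P. It rose by 2.40 (SE 0.31, adjusted p = 0.000111), and the groups did not overlap. IL1R1, the signalling receptor for interleukin 1, rose by 1.55 (SE 0.26, adjusted p = 0.00111) from 6.92 to 8.30 in E2 to 8.77 to 9.91 in E+7P. The chemokine receptor CXCR3 rose by 0.53 (adjusted p = 0.0299), and CSF3, a growth factor for neutrophils, fell by 0.83 (adjusted p = 0.0482). The CXCR3 call was lost without E+7P replicates 1, 3 or 5 or E2 replicates 1, 2 or 4, and the CSF3 call without any array but E+7P replicate 1 or E2 replicate 3 (adjusted p up to 0.094 and 0.133).

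Few immune cell markers and interferon genes were called. Rises made up 3.23% of the T and natural killer cell list and 2.63% of the interferon list, where 2.27% of all genes rose. Many markers were dim: 18 of 31 for T and natural killer cells and 13 of 19 for B and plasma cells. These were under the median of all probe sets in both groups. Of 31 T and natural killer cell markers, CD28, a costimulatory receptor of T cells, was called, with a rise of 0.63 (adjusted p = 0.0485). The other 30 were not, although 28 of the 31 had a log2 fold change above 0 and the median of the list was 0.35. The mean of the list ranged from 4.83 to 5.33 in E2 and from 5.24 to 5.77 in E+7P. Of 19 B and plasma cell markers limma called 0, with 1 at an unadjusted p under 0.05, and their median was 0.00. Of 38 interferon response genes IRF1, a transcription factor, was called, with a rise of 0.65 (adjusted p = 0.0474). Both calls were fragile, CD28 being lost without any array but E+7P replicate 4 and IRF1 without any but E+7P replicate 2 or E2 replicates 2 or 5 (adjusted p up to 0.148 and 0.144).

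Of 59 growth regulators, 5 rose (8.47%, against 2.27% of all genes) and 2 fell (3.39%, against 3.58%), with 3 rises left without E2 replicate 2 or 4. IGFBP3, which binds insulin-like growth factors, read 8.0, 7.77, 8.53, 7.12 and 7.61 in E2 and 9.38, 8.82, 9.43, 9.29 and 8.90 in E+7P. It rose by 1.36 (SE 0.21, adjusted p = 0.000711), without overlap. IGFBP6, another such binding protein, rose by 1.48 (adjusted p = 0.0224), INSR, the insulin receptor, by 0.84 (adjusted p = 0.00257), BTG1, an antiproliferative gene, by 0.75 (adjusted p = 0.00946), and ERBB3, a receptor of the EGF receptor family, by 0.92 (adjusted p = 0.0412). NOG, noggin, which blocks bone morphogenetic proteins, fell by 0.78 (adjusted p = 0.00257). CCND1, cyclin D1, which drives entry into the cell cycle and responds to estrogen, read 7.48, 7.64, 6.95, 7.50 and 7.56 in E2 and 6.64, 6.55, 6.57, 7.00 and 6.56 in E+7P. It fell by 0.76 (SE 0.14, adjusted p = 0.00305), and E2 replicate 3 was just below the highest E+7P array. Without this E2 array the log2 fold change was -0.88. Of 41 cell cycle genes, 31 were under the median of all probe sets in both groups, and GINS1, a DNA replication factor, was the member called, with a fall of 0.79 (adjusted p = 0.0203). That is 2.44% of the cell cycle list, where 3.58% of all genes fell. The IGFBP6 call was lost without E+7P replicate 1 or E2 replicates 1, 2 or 4, the ERBB3 call without any array but E+7P replicates 1 or 2 or E2 replicate 1, and the GINS1 call without E+7P replicate 5 or E2 replicate 1 (adjusted p up to 0.0688, 0.123 and 0.0558).

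Of 49 proteases and inhibitors, 4 rose (8.16%, against 2.27% of all genes) and 2 fell (4.08%, against 3.58%). The number of rises was 1 without E+7P replicate 2 or 4 and 2 without E+7P replicate 1 or E2 replicate 5, and 1 fall was left without E+7P replicate 5 or any of E2 replicates 2, 4 and 5. MME, the cell surface peptidase neprilysin, read 6.53, 5.73, 7.26, 5.89 and 5.37 in E2 and 8.54, 7.78, 8.25, 7.97 and 9.12 in E+7P. It rose by 2.18 (SE 0.37, adjusted p = 0.0013), and the groups did not overlap. The metalloproteinase inhibitors moved in opposite directions: TIMP2 rose by 1.07 (SE 0.26, adjusted p = 0.0192) and TIMP1 fell by 1.13 (SE 0.28, adjusted p = 0.0214). E2 replicate 3 read 9.61 for TIMP1, where the other E2 arrays read 10.61 to 10.94, and without it the log2 fold change was -1.36. SERPINA1, the elastase inhibitor alpha-1-antitrypsin, fell by 1.66 (SE 0.38, adjusted p = 0.0121). Its E2 arrays read 8.98 to 9.75 except replicate 3, which read 7.72, within the E+7P range, and without that array the log2 fold change was -2.01. SERPING1, the inhibitor of complement C1, rose by 0.63 (adjusted p = 0.03) and CTSK, a collagen-degrading cathepsin, by 0.83 (adjusted p = 0.0452). The TIMP2 call was lost without E+7P replicates 2 or 4, that of TIMP1 without E+7P replicate 5 or E2 replicates 2, 4 or 5, that of SERPING1 without any array but E+7P replicate 5 or E2 replicates 1 or 2, and that of CTSK without any but E2 replicates 2 or 4 (adjusted p up to 0.0512, 0.0736, 0.0868 and 0.121).

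ABI3BP, a matrix protein, read 6.96, 6.39, 7.94, 6.96 and 7.26 in E2 and 9.20, 9.41, 8.24, 8.80 and 8.25 in E+7P and rose by 1.68 (SE 0.38, adjusted p = 0.0109). MATN2, a matrilin of the matrix network, rose by 1.40 (SE 0.29, adjusted p = 0.00608), with E+7P replicate 5 at 8.67 and the other 4 arrays at 9.81 to 9.98. In both genes every E+7P array was above every E2 array. Of 50 matrix glycoproteins and proteoglycans, these 2 rose (4%) and 2 fell (4%), where 2.27% of all genes rose and 3.58% fell. The surface proteoglycan GPC4 fell by 1.01 (adjusted p = 0.00145) and HAS2, which makes hyaluronan, by 0.92 (adjusted p = 0.0452), a call lost without any array but E+7P replicate 2 (adjusted p up to 0.12). Of 55 collagens and collagen enzymes only PPIB, a prolyl isomerase of the ER that is also a member of the folding machinery, was called, with a fall of 0.85 (adjusted p = 0.00137). That is 1.82% of the list, where 3.58% of all genes fell. COL1A2 and COL3A1, chains of the main stromal collagens, had log2 fold changes of -0.37 (SE 0.35, adjusted p = 0.652) and -0.35 (SE 0.28, adjusted p = 0.581), with overlapping groups.

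Several of the 15 lowest log2 fold changes belong to receptors, guidance molecules and enzymes, which form no single list here. DIO2, the deiodinase that activates thyroid hormone, read 7.09, 7.90, 6.13, 8.80 and 7.35 in E2 and 5.51, 4.57, 5.47, 4.80 and 4.63 in E+7P. It fell by 2.45 (SE 0.32, adjusted p = 0.000133), without overlap. GRIA2, a glutamate receptor subunit, fell by 2.23 (SE 0.35, adjusted p = 0.000718) and CDH12, a cadherin, by 1.92 (SE 0.25, adjusted p = 0.000147), both with separate groups. SEMA3D and SEMA3A, secreted guidance molecules, fell by 2.22 (SE 0.46, adjusted p = 0.00593) and 1.35 (SE 0.26, adjusted p = 0.00364). SEMA3D read 8.54, 8.42, 5.71, 8.52 and 8.22 in E2 and 4.85, 5.64, 6.16, 5.78 and 5.89 in E+7P, so that 4 E2 arrays were far above the E+7P arrays and E2 replicate 3 lay among these. Without replicate 3 the SEMA3D log2 fold change was -2.76. Of 44 neural and excitable-cell genes, 4 fell (9.09%, against 3.58% of all genes) and none rose in limma (7 below 0 and 0 above at an unadjusted p under 0.05). CITED1, a transcriptional coactivator, had the same pattern: 8.54, 8.78, 4.48, 8.52 and 8.77 in E2 and 5.83, 5.83, 4.31, 5.36 and 5.49 in E+7P. It fell by 2.45 (SE 0.59, adjusted p = 0.0172), and its log2 fold change without E2 replicate 3 was -3.29. The CITED1 call was lost without E+7P replicate 3 or E2 replicates 2, 4 or 5 (adjusted p up to 0.0555) and when the 2 groups were fitted alone (adjusted p = 0.0987).

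CA10, an inactive member of the carbonic anhydrase family, fell by 2.30 (SE 0.38, adjusted p = 0.00115), with E2 replicate 3 at 5.30 and the other E2 arrays at 7.39 to 8.05, and the log2 fold change without that array was -2.79. PON3, a lactonase, fell by 2.26 (SE 0.53, adjusted p = 0.0142) and CPM, a membrane carboxypeptidase, by 2.20 (SE 0.38, adjusted p = 0.00155), both without overlap. Of 30 genes of prostaglandin signalling, 1 rose (3.33%, against 2.27% of all genes) and 1 fell (3.33%, against 3.58%). The receptor gene PTGER2 rose by 0.80 (adjusted p = 0.0155, lost without E+7P replicate 1 at 0.0507) and PTGDR fell by 1.10 (adjusted p = 0.0158, lost without E2 replicate 4 at 0.0568). Both were also lost when the 2 groups were fitted alone (adjusted p = 0.0525 and 0.0702). Of 55 genes of the Wnt pathway, 2 fell in limma, 3.64% where 3.58% of all genes fell, and none rose, where 2.27% of all genes rose. At an unadjusted p under 0.05, 8 were above and 5 below 0. PORCN, the enzyme that acylates Wnt ligands for secretion, fell by 1.18 (SE 0.17, adjusted p = 0.000378) and LEF1, a transcription factor of the pathway, by 0.69 (adjusted p = 0.0137). Without E2 replicate 3, 4 of the 55 genes were called lower.

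The 15 highest log2 fold changes also included genes of various roles. JUN, a subunit of the AP-1 factor, read 6.38, 6.86, 7.43, 6.64 and 6.47 in E2 and 8.67, 8.80, 8.15, 8.71 and 7.93 in E+7P and rose by 1.70 (SE 0.23, adjusted p = 0.000212). MERTK, a receptor for the uptake of dying cells, rose by 1.65 (SE 0.25, adjusted p = 0.00051), and CCDC141, a coiled-coil protein, by 2.50 (SE 0.33, adjusted p = 0.000141). These 3 genes had separate groups. TFCP2L1, a transcription factor of epithelia, rose by 1.82 (SE 0.45, adjusted p = 0.0224), and SLC26A7, an anion exchanger, by 1.66 (SE 0.43, adjusted p = 0.0278). Outside the 15 highest, NFIL3, a transcription factor tied to the circadian clock, rose by 1.31 (SE 0.30, adjusted p = 0.0124). NFIL3 was the 1 called of 17 clock genes, 5.88% where 2.27% of all genes rose. TFCP2L1 lost its call without E+7P replicates 3 or 5 or E2 replicates 2 or 5, and SLC26A7 without E+7P replicates 3 or 4 or E2 replicates 3 or 4 (adjusted p up to 0.0606 and 0.0829).

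In epithelial junctions, CLDN10, a claudin of ion-permeable tight junctions, read 8.55, 8.77, 8.18, 8.69 and 8.58 in E2 and 6.41, 5.99, 6.15, 6.94 and 6.56 in E+7P. It fell by 2.15 (SE 0.47, adjusted p = 0.00996), without overlap. CLDN11, another claudin, rose by 1.16 (SE 0.19, adjusted p = 0.00124). GJA1, the gap junction protein connexin 43, fell by 1.18 (SE 0.31, adjusted p = 0.0326), and TJP1, a scaffold of tight junctions, rose by 0.46 (adjusted p = 0.0374). NHERF1, a scaffold that holds ion transporters at the apical membrane, fell by 0.87 (SE 0.16, adjusted p = 0.00313). NHERF1 was the only one called of 33 ion and water transport genes, 3.03% where 3.58% of all genes fell. The GJA1 call was lost without E+7P replicates 2, 3 or 5 or E2 replicates 2, 4 or 5, and that of TJP1 without any array but E+7P replicate 2 (adjusted p up to 0.104 and 0.0908).

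Markers of the tissue's cell types were measured beside these genes. Members called lower made up 3.45% of the columnar and 7.14% of the ciliated list, where 3.58% of all genes fell. Members called higher made up 3.23% of the smooth muscle and 6.67% of the endothelial list, where 2.27% of all genes rose. Of 29 columnar epithelial markers, CLDN10 was called, and the means of the list overlapped, 7.08 to 7.66 in E2 and 7.06 to 7.50 in E+7P. Of 25 squamous markers limma called 0, with 0 at an unadjusted p under 0.05, and their means were 4.68 to 6.55 in E2 and 4.77 to 5.21 in E+7P. Of these 25, 19 had a log2 fold change below 0, and the median of the list was -0.49. Without E2 replicate 2 the squamous median was -0.295, and without E2 replicate 4 it was -0.20. Among 28 ciliated cell markers, CAPS, a calcium-binding protein, fell by 0.93 (adjusted p = 0.0272) and CCNO, a cyclin needed to build many cilia, by 0.54 (adjusted p = 0.0226), and 26 of the 28 had a log2 fold change below 0. The median of the ciliated list was -0.44. Without E2 replicate 3 it was -0.27, with 1 member called lower, and without E2 replicate 4 it was -0.60. Of 31 smooth muscle markers, 27 had a log2 fold change above 0, with a median of 0.35, and of 0.67 without E2 replicate 3. This median was -0.03 without E+7P replicate 2 and 0.24 without E+7P replicate 1, the arrays with the highest smooth muscle means of their group. RGS5, a regulator of G proteins also found in pericytes, was the member called, with a rise of 1.13 (adjusted p = 0.0276), and ACTA2 had a log2 fold change of 0.21 (SE 0.43, adjusted p = 0.863), and of 0.49 without E2 replicate 3. Of 30 endothelial markers, the lymphatic protein PDPN rose by 1.01 (adjusted p = 0.0259) and the transcription factor FLI1 by 0.50 (adjusted p = 0.0249). TTN, the giant protein of striated muscle, rose by 1.67 (adjusted p = 0.0093). Among the E+7P arrays it was highest (7.22) in replicate 2, which had the highest smooth muscle mean of that group. TTN kept its call with the smooth muscle mean as a covariate, and the reason for its rise was not tested. It was the 1 called of 20 genes of blood, fat and skeletal muscle, 5% where 2.27% of all genes rose. Of these 20, 16 were under the median of all probe sets in both groups. Calls here were lost for CAPS without E+7P replicates 1, 4 or 5 or E2 replicates 1, 2 or 3, for CCNO without E+7P replicate 3 or E2 replicate 5, for RGS5 without E+7P replicates 1 or 2 or E2 replicates 2, 4 or 5, for PDPN without E+7P replicates 1, 2 or 4 or E2 replicates 2 or 3, and for FLI1 without E+7P replicates 2 or 4 or E2 replicates 1 or 4 (adjusted p up to 0.0677, 0.0747, 0.0819, 0.0734 and 0.0705). With the squamous, columnar and smooth muscle means as covariates, none of the called genes named here lost its call in limma, and the number of called probe sets was 2583. These means include some of the named genes, such as CLDN10 and RGS5, and ciliated, endothelial and immune means were not entered. The part of tissue makeup in the calls was therefore not tested.

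**Figure D3:**
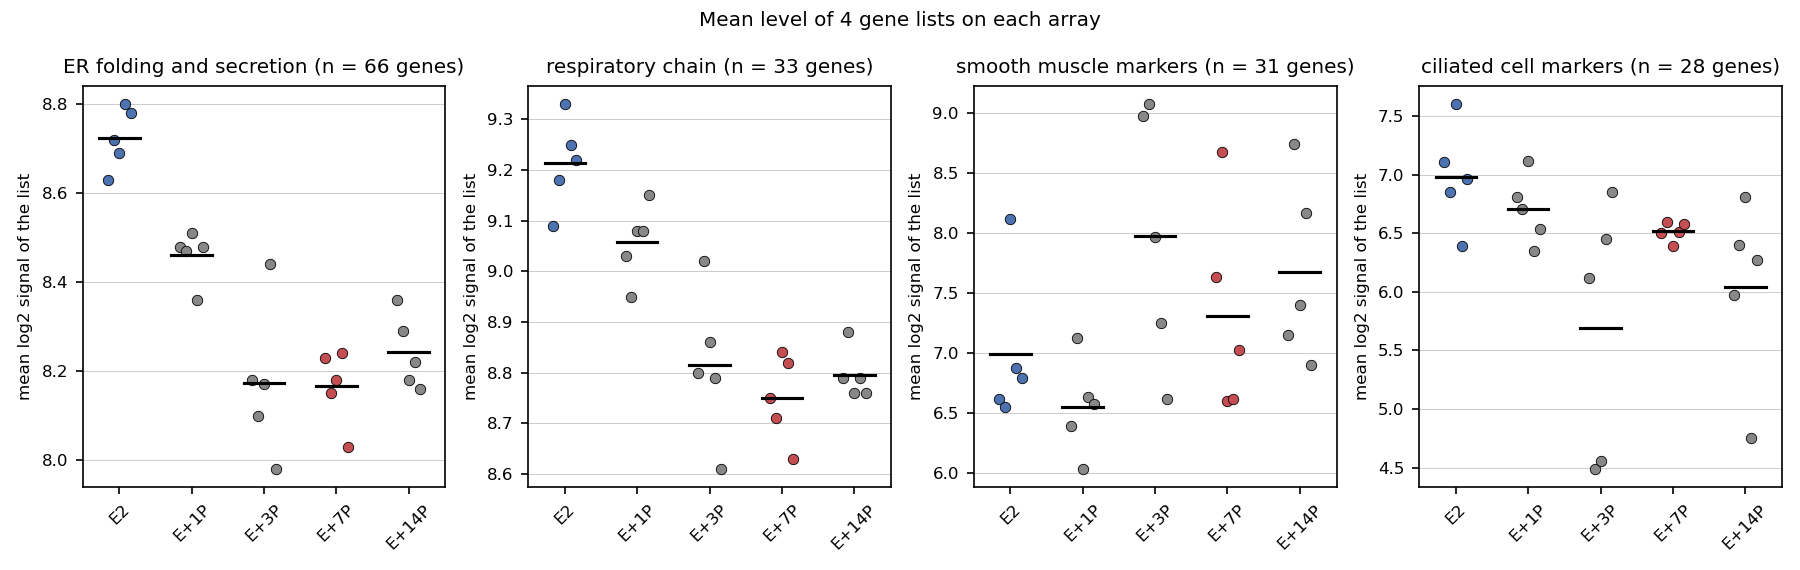
Mean log2 signal of 4 gene lists (vertical axes, each with its own range) on each array of the 5 hormone groups (horizontal axis), with the group mean as a bar. The E+7P arrays (red) lie below every E2 array (blue) for the endoplasmic reticulum (8.03 to 8.24 against 8.63 to 8.80) and the respiratory chain, while smooth muscle and ciliated means overlap and E2 replicate 3 is the highest E2 array in both.

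The other progesterone times place 7 days within the course. All of these comparisons with E2 use the same E2 arrays. Against E2, the number of ER genes called lower was 10 after 1 day, 48 after 3 days, 44 after 7 days and 37 after 14 days, where 1.47%, 7.16%, 3.58% and 3.53% of all genes were called lower. For the respiratory chain the numbers were 1, 19, 21 and 18. The mean of the ER list on single arrays ranged from 8.36 to 8.51 in E+1P, from 7.98 to 8.44 in E+3P and from 8.16 to 8.36 in E+14P, so that only E+1P lay between the E2 and the E+7P arrays without touching either.

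Directly compared, 7 days differed from 1 day in 996 probe sets, 2.46%, with 377 higher and 619 lower. By gene, 547 were called, 3.52%, of which 201 were higher, 1.29%, and 346 lower, 2.23%. Median centring of the arrays put 27.3% of these calls in the higher direction in place of 37.9%. Several genes had their highest group mean after 1 day. STRA6 read 8.08, 7.93, 8.09, 7.55 and 7.83 after 1 day and 5.52, 5.66, 5.33, 5.54 and 5.22 after 7 days, with E2 at 6.08 to 6.49 between them. It fell by 2.44 from 1 to 7 days (SE 0.22, adjusted p = 5.38e-07). KRT222, a keratin-related gene, fell by 2.99 (SE 0.31, adjusted p = 5.4e-06) from 7.04 to 8.54 after 1 day to 4.04 to 5.81 after 7 days, a range that overlaps that of E2. ACP3, a secreted acid phosphatase, fell by 2.99 (SE 0.45, adjusted p = 0.000427), and SCGB1D4, a secretoglobin, by 3.11 (SE 0.67, adjusted p = 0.0123). ACP3 was also 1.61 lower after 7 days than in E2 (adjusted p = 0.042, lost without E+7P replicates 1, 2 or 5 or E2 replicates 2, 3 or 4). FKBP5 was lower after 7 days than after 1 day, by 0.89 (adjusted p = 0.0255).

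Further genes were not called against E2 after 1 day and were lower by 7 days. For SPDEF and CCND1 the E+1P mean was above the E2 mean, since their log2 fold changes against E2 after 7 days were smaller, -1.04 and -0.76. SPDEF fell by 1.69 from 1 to 7 days (SE 0.19, adjusted p = 1.77e-05), CCND1 by 1.26 (SE 0.14, adjusted p = 1.44e-05), HK2 by 1.64 (SE 0.24, adjusted p = 0.000289), LYZ by 1.81 (adjusted p = 0.0105) and OVGP1 by 3.73 (adjusted p = 0.00675). LYZ had read 11.17 to 11.69 after 1 day, which overlaps the E2 range of 11.29 to 11.77. Rises that came after the first day included TNFSF10, 2.12 higher after 7 days than after 1 (SE 0.31, adjusted p = 0.000279), DHRS3, 1.13 higher (adjusted p = 0.00331), IL15, 1.26 higher (adjusted p = 0.0108), and IL1R1, 1.14 higher (adjusted p = 0.0156). For other genes the group mean was lowest after 1 day. SLC40A1, the iron exporter ferroportin, read 9.37 to 10.88 in E2, 8.38 to 8.90 after 1 day and 10.03 to 10.85 after 7 days, a rise of 1.8 from 1 to 7 days (SE 0.28, adjusted p = 0.000498). STC1, the hormone stanniocalcin, rose by 2.02 (SE 0.52, adjusted p = 0.0375) and CLU, the secreted chaperone clusterin, by 1.98 (SE 0.40, adjusted p = 0.00853). SCARA3, a scavenger receptor, rose by 1.76 from 1 to 7 days (SE 0.21, adjusted p = 3.34e-05) and was also 1.15 higher than in E2 (adjusted p = 0.00258).

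**Figure D4:**
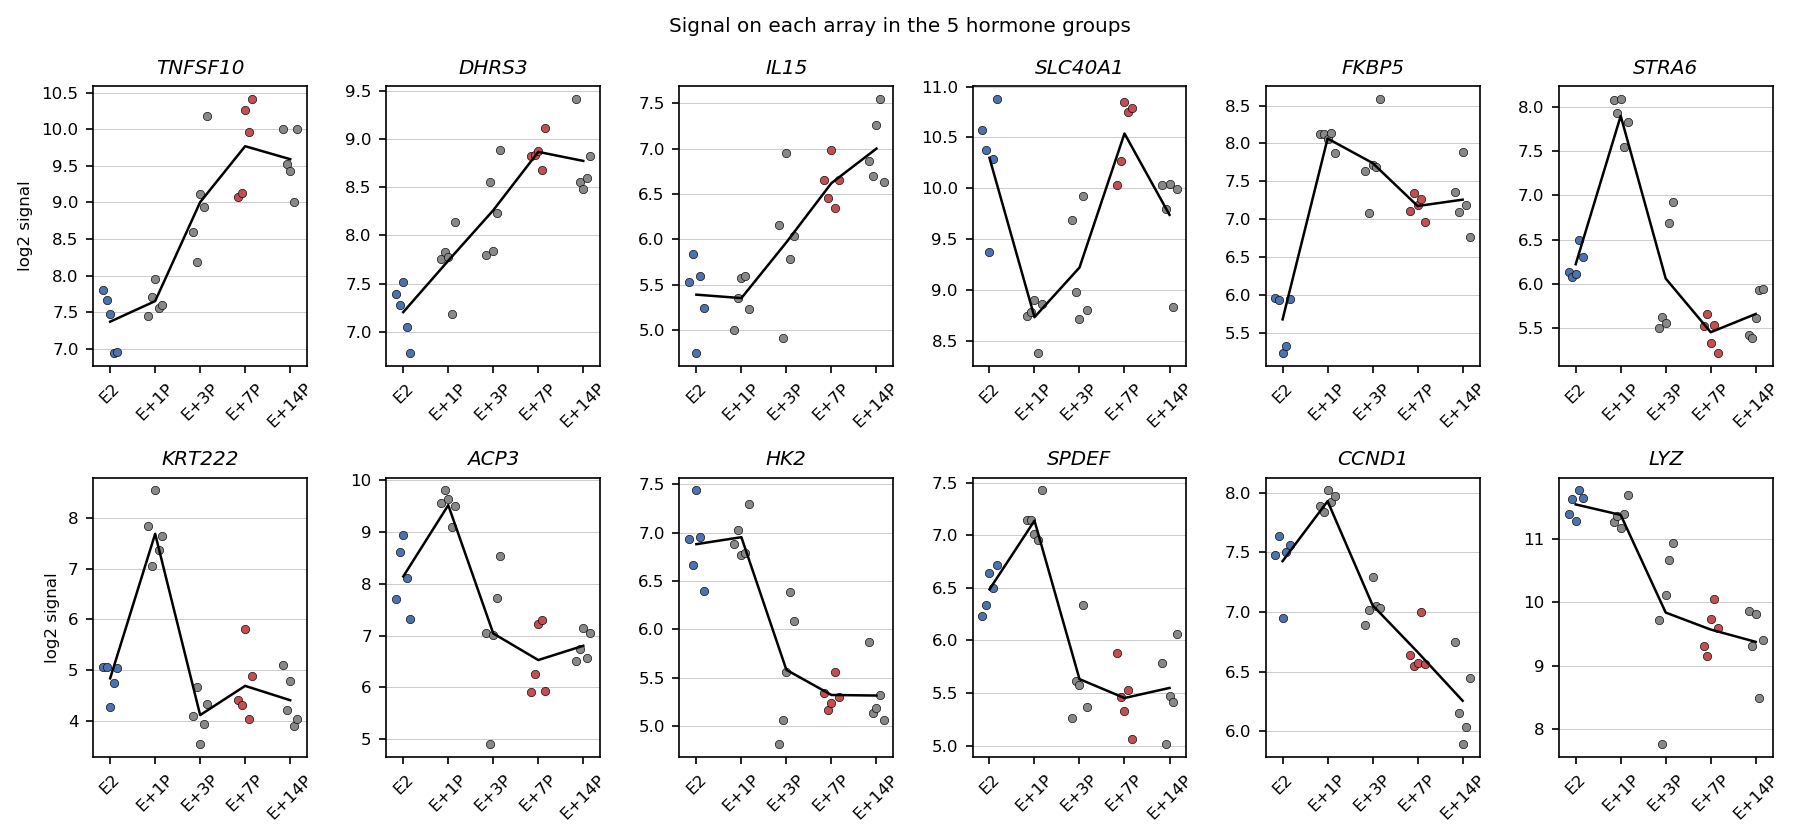
Log2 signal of 12 genes (vertical axes, each with its own range) on each array of the 5 hormone groups (horizontal axis; E2 blue, E+7P red), with lines through the group means. TNFSF10, DHRS3 and IL15 are higher after 7 days than after 1, SLC40A1 is low after 1 day, STRA6, KRT222 and ACP3 are highest after 1 day, and HK2, SPDEF, CCND1 and LYZ are low by 7 days.

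Between 3 and 7 days, 2 probe sets were called, 0.00494%, both higher after 7 days, and 4512, 11.1%, had an unadjusted p under 0.05. The 1 gene among them, 0.00644% of genes, was PLEKHA5, which read 7.60, 7.67, 7.84, 7.67 and 8.06 after 3 days and 8.89, 8.46, 8.33, 8.36 and 8.36 after 7 days, a rise of 0.71 (adjusted p = 0.04) to the level of E2 (8.36 to 8.54). The other had no gene symbol and rose by 1.15 (adjusted p = 0.0177). E+3P replicates 2 and 3 stand apart in epithelial markers. Without E+3P replicate 5 the number of calls was 65, and it was 0 without E+3P replicates 2 or 3. Between 7 and 14 days limma called 0 probe sets, while 1729, 4.27%, had an unadjusted p under 0.05. These counts do not show that the times were alike.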

How the data were processed

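The deposited table holds log2 signals of 40489 probe sets on 25 arrays, a unit read from the range of the values. Affymetrix Expression Console is the software in the submitters' processing notes, with version, summarization and normalization method not given in the sources used here. Per the labels' protocols, RNA from frozen cervix was amplified by a whole-transcript kit and labelled with biotin. No background or detection values were used, so signal over background is unknown. Symbols came from the platform annotation: 16020 probe sets had 1 symbol, 490 several and 23979 none.

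Groups follow the array titles, and replicates were numbered in accession order. limma 3.58.1 in R 4.3.3 fitted 1 coefficient per group to all 25 arrays, with a variance trend and Benjamini-Hochberg adjustment over all probe sets (threshold 0.05, 2-sided). Changes are differences of mean log2 signal, and the spread between animals was pooled over the 5 groups. A gene was read from its probe set with the highest mean. The script was tested on simulated data. No batch was labelled.

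Members and the 31 gene lists (1421 entries, 1149 measured) were chosen with earlier results of these data known. Named genes were the 15 highest and 15 lowest called genes at or over the median probe set signal in their higher group, 5 of each for the other progesterone times, PGR, ESR1 and FKBP5, and from each list up to 8 called and 3 uncalled members. List members may also be named for a whole list. Of 203 such genes, 130 are described, and the closing part adds 4 picked with their values known. Alternatives changed the samples, scaling, filter, weights, variance trend, minimum change and covariates.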

Additional observations from a re-analysis of the deposited data

Results flagged for a closer look

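In a group of 5 arrays, a value far from the other 4 by Dixon's criterion turns up by chance in about 1 group in 20. Over the genes named, 268 groups were checked and 28 such values were found. E2 replicate 3 accounts for 13 of them. It was the lowest of its group for SGK1 (7.73, next 9.32), GALNT5 (6.73, next 8.55), PF4V1 (5.70, next 8.61), XBP1 (8.86, next 10.16), CCND1 (6.95, next 7.48), TIMP1 (9.61, next 10.61), SEMA3D (5.71, next 8.22), CITED1 (4.48, next 8.52), CA10 (5.30, next 7.39), KRT5 (5.33, next 8.49), WFDC2 (11.73, next 11.99) and STC1 (6.12, next 7.73). It was the highest for PDK4 (7.81, next 6.06). Its smooth muscle and ciliated cell means were the highest of E2 and its mucus mean the lowest, and the part of these in the values was not tested.

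Among the other E2 arrays, replicate 4 stood apart for GPX8 (7.76) and CLDN11 (5.31), replicate 1 for HAS2 (5.42) and replicate 5 for TTN (3.56). In E+7P, replicate 5 was the lowest for PDIA6 (7.55), SAR1B (6.78), MATN2 (8.67) and SERPING1 (10.42), and replicate 4 the highest for AOX1 (8.51), CCND1 (7.00) and CTSK (9.56). Replicate 1 was the lowest for COX6C (11.39) and the highest for PLEKHA5 (8.89), replicate 2 the highest for TTN (7.22) and replicate 3 for SCARA3 (7.36).

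The response at 7 days differed from that at 1 day, by the test of E+7P against E+1P, for the following genes (log2 differences, limma). Lower after 7 days were FKBP5 (-0.89), CLCA1 (-3.50), OVGP1 (-3.73), SPDEF (-1.69), LYZ (-1.81), PF4V1 (-1.99), SERPINA1 (-1.41), HK2 (-1.64), PRDX4 (-0.89), STRA6 (-2.44), CCND1 (-1.26), KRT222 (-2.99), SCGB1D4 (-3.11) and ACP3 (-2.99). Lower too were the ER genes TMED3 (-1.14), SSR4 (-0.63), LMAN1 (-0.63) and SAR1B (-0.41), the proteasome, mitochondrial ribosome and sugar chain genes PSMB5 (-0.46), MRPL33 (-0.94) and ALG14 (-0.63), and the respiratory chain genes NDUFC2 (-0.84), ATP5MC3 (-0.51), ATP5MC1 (-0.59), UQCRQ (-0.42), COX4I1 (-0.56) and COX5A (-0.57). Higher after 7 days were FOXO1 (0.79), IL15 (1.26), MASP1 (1.12), DHRS3 (1.13), TNFSF10 (2.12), IL1R1 (1.14), IRF1 (0.89), IGFBP3 (0.94), TIMP2 (0.98), ABI3BP (1.39), CLDN11 (0.94), RGS5 (1.30), STC1 (2.02), CLU (1.98), SLC40A1 (1.8) and SCARA3 (1.76). Their adjusted p-values ran from 5.38e-07 for STRA6 to 0.0491 for ABI3BP. Of the genes named, PLEKHA5 differed between 3 and 7 days (0.71, adjusted p = 0.04).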

How the results depend on the processing

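No called gene that is named changed direction under any alternative, while 9 genes that were not called had values on both sides of 0 (MUC1, SEC31A, COX6C, KRT5, WFDC2, ACTA2, KRT222, STC1 and PLEKHA5). Of the 107 called genes named by the rule, 68 kept their call under every alternative other than the minimum change and without each of the 10 arrays in turn. For E+7P against E2, array weights gave 2832 called probe sets, 3 makeup covariates 2583, 1 probe set per gene 1116 and a minimum change of 1.5-fold 4, against 1695. Leaving out single arrays gave 1008 (without E+7P replicate 5) to 1696, and 1064 without E2 replicate 4. The other settings gave 1500 to 2241. For E+7P against E+1P, the 2 groups alone gave 1754, array weights 2046, a minimum change of 1.5-fold 49 and single arrays left out 559 to 835, against 996, and 588, 646 and 634 without E+1P replicates 1, 3 and 4, 559 without E+1P replicate 5, and 623 and 589 without E+7P replicates 2 and 5. Against E+3P the counts were 0 with the 2 groups alone, with array weights, a minimum change, either set of covariates or when the 4 arrays with outlying epithelial markers were left out (E+3P replicates 2 and 3, E+14P replicates 4 and 5), 1 without a variance trend or with quantile normalization, 4 without dim probe sets and 0 to 65 without single arrays, against 2. For E+14P against E+7P each fit gave 0. The cause was not tested, except that fewer arrays or fewer probe sets enter some fits and a minimum change is a stricter test.

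Calls of single genes were lost with the 2 groups alone for SCGB3A1, PF4V1, CST5, RARA, CSF3, CXCR3, IRF1, ERBB3, PTGER2, PTGDR, CITED1 and SLC26A7, without a variance trend for STRA6, CSF3, IRF1 and CTSK, with median centring for IRF1, CD28, CTSK and TJP1, with quantile normalization for IRF1 and CD28, without those 4 arrays for RARA, CSF3 and IRF1, and with the smooth muscle covariate for CSF3 and CD28. With 5 animals a group the number of arrays limits the precision, and signal over background is unknown. No paired analysis was made, since each array has its own number in its title and the labels name no pairs between groups.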

Other observations

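Gene families picked by the start of their symbols, after their values had been seen, showed further falls between E2 and E+7P. Of 33 subunits of the proteasome, which degrades tagged proteins, 12 fell and none rose in limma, with 22 at an unadjusted p under 0.05 and a median of -0.31. PSMB5, a catalytic subunit, fell by 0.80 (SE 0.12, adjusted p = 0.000378). Of 59 proteins of the mitochondrial ribosome, which translates respiratory chain subunits, 11 fell and none rose, with 28 at an unadjusted p under 0.05 and a median of -0.265. MRPL33 had the lowest value, a fall of 1.28 (SE 0.14, adjusted p = 4.94e-05). Of 43 proteins of the cytosolic ribosome, 2 fell and none rose, with 7 at an unadjusted p under 0.05 and a median of -0.12. Of 29 enzymes that build N-linked sugar chains and lipid anchors, 6 fell and none rose, with 9 at an unadjusted p under 0.05. ALG14, which adds an early sugar of the N-linked chain, fell by 1.23 (SE 0.13, adjusted p = 4.94e-05).

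Of 305 solute carriers, 4 rose and 11 fell, and SLC50A1, a sugar transporter of the Golgi, had the lowest value, a fall of 1.14 (SE 0.21, adjusted p = 0.00217). Of 300 zinc finger genes 2 rose and none fell, with 25 at an unadjusted p under 0.05. Of 18 histone genes 3 fell, and of 25 HOX genes limma called 0, with 1 at an unadjusted p under 0.05. For comparison, 2.27% of all genes rose and 3.58% fell.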
